A study of Litchi chinensis with 18 samples.

Results

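In the sequenced carpels and stamens of the litchi cultivar 'Feizixiao', 19 of 34024 loci carried a Swiss-Prot annotation for a tapetum regulator or a pollen wall protein. A locus was a member when its annotation, in any letter case, named the cytochromes CYP703A2 or CYP704B1, Fatty acyl-CoA reductase 2, Type III polyketide synthase, Tetraketide alpha-pyrone reductase, ABORTED MICROSPORES, DYSFUNCTIONAL TAPETUM, PHD finger protein MALE STERILITY 1 or ABC transporter G family member 26. Of these 9 phrases, 8 were found, and no locus was annotated as DYSFUNCTIONAL TAPETUM. The rule used annotations and no measured value, though it was chosen with earlier results of these data known. Each of the 19 loci had 1 gene model.

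RNA was sequenced from 6 organs taken at full bloom, with 3 libraries for each organ and 18 libraries in all. F-carpel and F-stamen came from functionally female flowers, whose stamens are rudimentary and do not dehisce. M-carpel and M-stamen came from functionally male flowers with an unobvious rudimentary pistil that lacks ovules, and m-carpel and m-stamen from functionally male flowers with an obvious rudimentary pistil that lacks style and stigma. Samples were taken in triplicate from the sides of the tree, so p-values measure the spread between these samples of 1 cultivar.

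The tapetum is the innermost cell layer of the anther wall. It feeds the developing microspores and makes the precursors of sporopollenin, the polymer of the outer pollen wall. In Arabidopsis, fatty acids are hydroxylated by CYP703A2 and CYP704B1, activated by the acyl-CoA synthetase ACOS5, extended by the polyketide synthases PKSA and PKSB, reduced by TKPR1 and TKPR2, and the products are thought to be exported by the transporter ABCG26. The reductase FAR2, also called MS2, supplies fatty alcohols, and the transcription factors AMS and MS1 control this programme. The litchi loci carry these names by sequence annotation only. All organs were taken at full bloom, and no library covers an earlier stage. Whether the tapetum was still present then was not tested, and anther stage and flower type cannot be told apart.

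The members fell into 3 regulators, 15 enzymes and 1 transporter. The regulators were 2 AMS loci (LITCHI002043 and LITCHI004937) and MS1 (LITCHI005964). The enzymes were PKSA (LITCHI025403), 2 PKSB loci (LITCHI001957 and LITCHI001958), 2 loci annotated as CYP703A2 (LITCHI026872 and LITCHI002548), 2 CYP704B1 loci (LITCHI005202 and LITCHI005203), 2 FAR2 loci (LITCHI019068 and LITCHI015833), 5 TKPR1 loci (LITCHI002216, LITCHI004424, LITCHI004425, LITCHI004432 and LITCHI004433) and TKPR2 (LITCHI005521). The transporter was ABCG26 (LITCHI013650). Loci with consecutive numbers, such as LITCHI001957 and LITCHI001958, LITCHI005202 and LITCHI005203, and LITCHI004424 and LITCHI004425, share an annotation, and whether the counting split reads between them was not checked.

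Total counts were between 25689398 and 32302522 per library, so that a locus without counts could still have up to 0.117 CPM (counts scaled to library size) in the smallest library, by counting error alone. Levels are given as FPKM, fragment counts scaled by transcript length and library size, which are comparable between loci. Changes are log2 fold changes of counts with their standard error (SE) from edgeR's quasi-likelihood test. A locus was called at a Benjamini-Hochberg FDR below 0.01 over all 24666 loci tested and a fold change of at least 2. A count was recorded in 17 members and 15 passed the filter on low counts. LITCHI002548 and LITCHI004432 had no count in any library. Of the 15 tested, 14 were called in at least 1 of 13 comparisons, beside 72.4% of all loci tested. The members with few counts passed the filter through the organ in which they were high, so the counts of calls below describe the members and support nothing further.

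**Figure D1:**
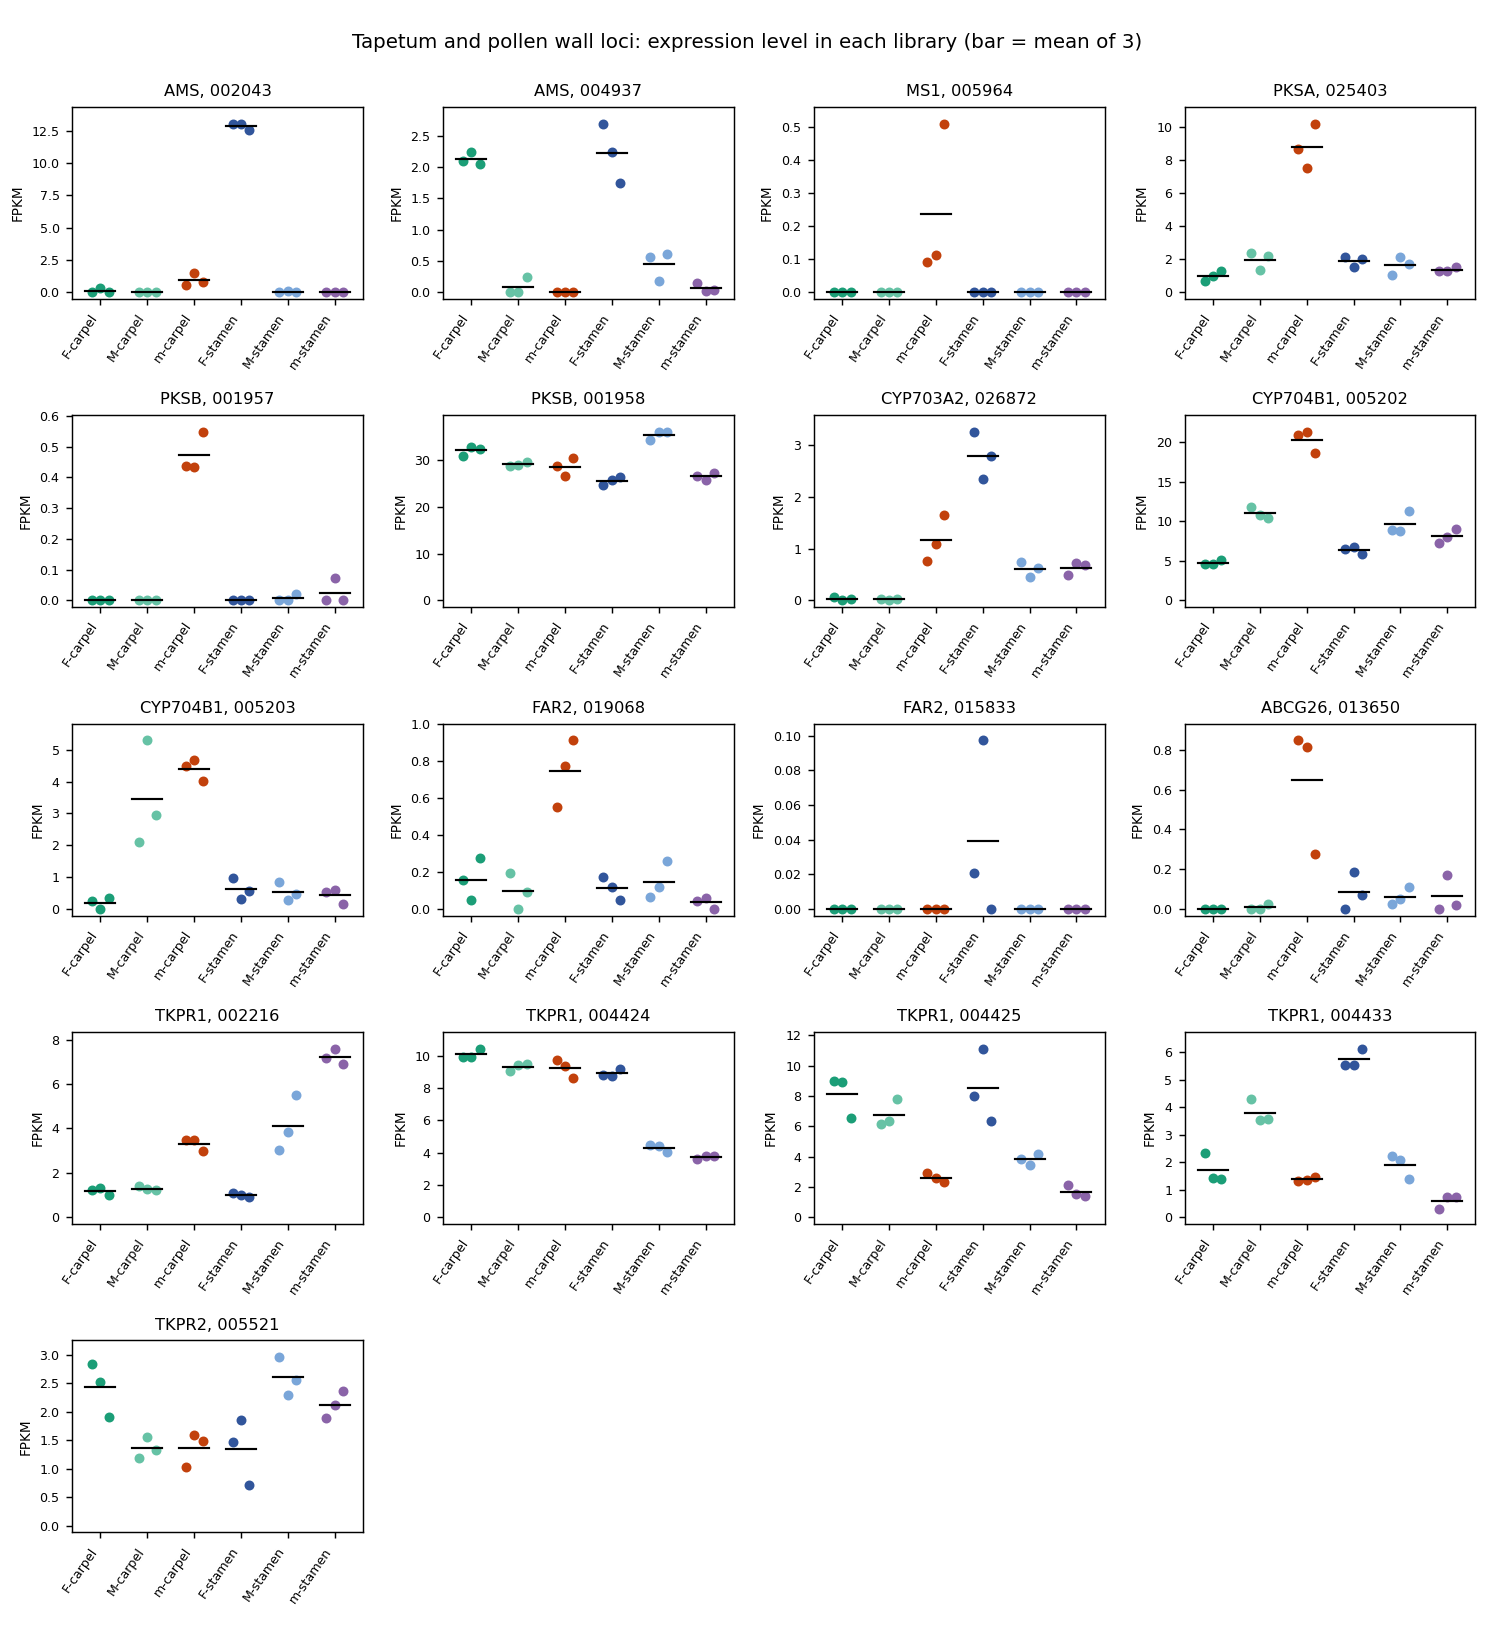
Expression level (FPKM, vertical axis, own scale in each panel) of the 17 members with any count in each of the 18 libraries, with 3 points and a bar at the mean for each of the 6 organs, and the last digits of the LITCHI number in each title. The m-carpel libraries were above all other libraries in the panels of PKSA, PKSB LITCHI001957, CYP704B1 LITCHI005202, FAR2 LITCHI019068, ABCG26 and MS1, and the F-stamen libraries in those of AMS LITCHI002043, CYP703A2 and TKPR1 LITCHI004433.

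The AMS locus LITCHI002043, a helix-loop-helix transcription factor by its annotation, was highest in the stamens of the female flowers. Its level in F-stamen was 13, 13.1 and 12.6 FPKM, and in m-carpel it was 0.575, 1.45 and 0.760 FPKM. Each of the other 12 libraries was at or below 0.287 FPKM, and m-stamen had no count at all. The F-stamen libraries lay above every other library, and the m-carpel libraries above all those of the other 4 organs.
LITCHI002043 was higher in F-stamen than in F-carpel by 7.08 ± 0.73 on the log2 scale (edgeR, FDR = 4.2e-07) and than in M-stamen by 8.63 ± 0.85 (FDR = 4.8e-07). Of the 26 counts in F-carpel, 24 came from replicate 2, without which F-stamen minus F-carpel was 9.94 and F-carpel minus m-carpel −6.35, and without F-carpel replicate 3 they were 6.49 and −2.82. F-stamen minus M-stamen was 9.25 without M-stamen replicate 2 and 8.04 without replicate 3. Against m-stamen it was at least 872-fold higher, with the m-stamen libraries set together to a floor of 3 counts. In m-carpel it was at least 68.8-fold higher than in m-stamen on the same floor and 110-fold higher than in M-carpel, where 2 counts give a counting interval of 30.2 to 917. The difference between F-carpel and m-carpel was −3.41 ± 0.72 (edgeR, FDR = 5.6e-04), and this call was lost with DESeq2 (FDR = 0.0228) and when the fit held only both organs (FDR = 0.0112).

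The other AMS locus, LITCHI004937, was highest in both organs of the female flowers. It was at 2.09, 2.25 and 2.05 FPKM in F-carpel and at 2.70, 2.24 and 1.75 FPKM in F-stamen. In M-stamen it was at 0.561, 0.181 and 0.611 FPKM, in m-stamen at 0.151, 0.0210 and 0.0300 FPKM, in 1 M-carpel library at 0.233 FPKM, and it had no count in the other 2 M-carpel libraries or in m-carpel. All 6 libraries of female flowers were above the 12 libraries of male flowers. The difference was 4.53 ± 0.88 between F-carpel and M-carpel (edgeR, FDR = 3.3e-04) and 4.59 ± 0.88 between F-stamen and m-stamen (FDR = 3.7e-04), and F-carpel was at least 116-fold above m-carpel. All 14 counts of M-carpel came from replicate 3, without which M-carpel was at 0 and the fitted difference from F-carpel 9.93, and F-stamen minus m-stamen was 5.82 without m-stamen replicate 1. Between F-stamen and M-stamen it was 2.17 ± 0.73 and not called (FDR = 0.0212), though it was called without M-carpel replicate 3 (2.04, FDR = 0.00412) and with only both organs in the fit (2.06, FDR = 0.00195).

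MS1, a PHD finger regulator that acts late in the tapetum of Arabidopsis, was counted in m-carpel only. LITCHI005964 had 7, 8 and 33 counts in the 3 m-carpel libraries and none in the other 15, and it did not pass the filter. With a floor of 3 counts per organ, m-carpel was at least 19.4-fold above F-carpel, at least 15-fold above M-carpel and at least 14.0-fold above m-stamen. Most of these counts came from m-carpel replicate 3, and the level stayed at or below 0.512 FPKM. In a fit without the filter none of the 3 differences was called. Against F-carpel, M-carpel and m-stamen the FDR was 0.0169, 0.0303 and 0.0205 (edgeR).

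PKSA, which extends fatty acyl-CoA to polyketides, was highest in the rudimentary carpels of the m flowers. LITCHI025403 was at 8.70, 7.53 and 10.2 FPKM in m-carpel, at 0.690, 0.943 and 1.25 FPKM in F-carpel and at 2.36, 1.35 and 2.18 FPKM in M-carpel. The 9 stamen libraries were between 1.03 and 2.15 FPKM. The m-carpel libraries lay above all 15 others, and the stamens of the 3 flower types overlapped. On the log2 scale the difference was −3.43 ± 0.30 between F-carpel and m-carpel (edgeR, FDR = 1.1e-08), −2.22 ± 0.28 between M-carpel and m-carpel (FDR = 3.7e-06) and −2.44 ± 0.28 for m-stamen minus m-carpel (FDR = 5.5e-07).
PKSA was also lower in F-carpel than in M-carpel, by −1.21 ± 0.29 (edgeR, FDR = 0.00141), and F-stamen was above F-carpel by 1.1 ± 0.29 (FDR = 0.00266). The first call was lost without F-carpel replicate 1 (−1.01, FDR = 0.0101) and with only both organs in the fit (FDR = 0.0115). The second was lost when any 1 of 8 libraries was left out, with values between 0.904 and 1.01. These 8 were F-carpel replicates 1 and 2, M-carpel replicate 3, m-carpel replicate 3, F-stamen replicates 1 and 3 and m-stamen replicates 2 and 3.

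The PKSB loci, numbered next to each other, differed in both level and pattern. LITCHI001957 had 38, 37 and 42 counts in the m-carpel libraries, 2 counts in 1 M-stamen library, 7 counts in 1 m-stamen library and none in the other 13. In FPKM its level in m-carpel was 0.436, 0.433 and 0.548, above all other libraries, of which the highest was at 0.0737. It was at least 47.4-fold higher in m-carpel than in F-carpel and at least 36.6-fold higher than in M-carpel. edgeR called both (FDR = 0.00136 and 0.00309) and DESeq2 called neither (FDR = 0.110 and 0.161). The call against M-carpel was also lost without M-carpel replicate 1, 2 or 3 or m-carpel replicate 3 (FDR between 0.0103 and 0.0125).
LITCHI001958 was the member with the highest level and was called in no comparison. Its domain annotation named an ER lumen protein retaining receptor beside domains of chalcone and stilbene synthases. Whether its counts come from the polyketide synthase part of the gene model was not tested. It was between 24.6 and 36.0 FPKM in all 18 libraries, with 34.2, 35.9 and 36.0 FPKM in M-stamen and 24.6, 25.7 and 26.4 FPKM in F-stamen. The difference between these stamens was −0.58 ± 0.06 (edgeR, FDR = 1.8e-07), below the minimum fold change.

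Both CYP704B1 loci, annotated as ω-hydroxylases of long-chain fatty acids, were lowest in F-carpel. LITCHI005202 was at 4.61, 4.59 and 5.04 FPKM in F-carpel, at 11.8, 10.8 and 10.3 FPKM in M-carpel and at 20.9, 21.3 and 18.6 FPKM in m-carpel. The stamens were between 5.81 and 11.3 FPKM. The 3 carpels did not overlap, and the m-carpel libraries lay above the other 15. The log2 difference was −1.40 ± 0.11 between F-carpel and M-carpel (edgeR, FDR = 2.3e-09) and −2.33 ± 0.11 between F-carpel and m-carpel (FDR = 1.8e-12). M-carpel minus m-carpel gave −0.93 ± 0.10 (FDR = 7.4e-07), below the minimum fold change, and m-stamen minus m-carpel −1.07 ± 0.10 (FDR = 4.5e-08), which moved to −0.99 with DESeq2 and its RLE size factors. The second annotation of LITCHI005202, by its best protein database hit, was CYP704C1. Its domain annotation named a protein of unknown function (DUF962) beside cytochrome P450.
LITCHI005203 was at 0.242, 0 and 0.352 FPKM in F-carpel, at 2.11, 5.30 and 2.95 FPKM in M-carpel and at 4.5, 4.68 and 4.02 FPKM in m-carpel. The 9 stamen libraries were between 0.159 and 0.967 FPKM. M-carpel and m-carpel overlapped, and both lay above all other libraries. F-carpel was lower than M-carpel by −4.27 ± 0.72 (edgeR, FDR = 5.1e-05) and lower than m-carpel by −4.65 ± 0.72 (FDR = 1.9e-05), and m-stamen was lower than m-carpel by −3.03 ± 0.66 (FDR = 5.2e-04). M-stamen was lower than M-carpel by −2.63 ± 0.65 (FDR = 0.00194), a call lost without M-carpel replicate 2 or M-stamen replicate 2 or 3 (FDR between 0.0101 and 0.0135). The difference between F-carpel and m-carpel was −4.04 without F-carpel replicate 2 and −5.32 without replicate 3, and without replicate 3 that between F-carpel and M-carpel was −4.94.

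The FAR2 locus LITCHI019068, a fatty acyl-CoA reductase, was low in every organ and highest in m-carpel. It was at 0.551, 0.770 and 0.910 FPKM there, and the other 15 libraries were at or below 0.274 FPKM without overlap. The difference between m-stamen and m-carpel was −4.06 ± 1.02 (edgeR, FDR = 0.00183), with −4.70 without m-stamen replicate 2 and −3.46 without replicate 3. Those of F-carpel (−2.44 ± 0.89, FDR = 0.0230) and M-carpel (−3.0 ± 0.94, FDR = 0.0138) from m-carpel were not called. Both were called with only the organs compared in the fit (FDR = 0.00334 and 0.0079), the first without M-carpel replicate 2 (FDR = 0.00948) and the second with DESeq2 (FDR = 0.00269). The other FAR2 locus, LITCHI015833, had 10 counts in all, 2 and 8 of them in 2 F-stamen libraries.

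ABCG26, the transporter, was likewise highest in m-carpel. LITCHI013650 had 78, 73 and 23 counts in the m-carpel libraries, none in F-carpel, 2 in 1 M-carpel library and 16 or fewer in each stamen library. Its level in m-carpel was 0.849, 0.815 and 0.278 FPKM, and the other 15 libraries were at or below 0.187 FPKM. In m-carpel it was at least 70.5-fold higher than in F-carpel and 81.8-fold higher than in M-carpel, with a counting interval of 22.3 to 680. Both were called (edgeR, FDR = 6.5e-04 and 0.00406), and the second call was lost without M-carpel replicate 1 or 2 or m-carpel replicate 1 or 2 (FDR between 0.0121 and 0.0203). m-stamen minus m-carpel gave −3.06 ± 1.21 (FDR = 0.0342), and the call appeared without m-stamen replicate 2 (−5.45, FDR = 0.00776). For LITCHI001957 the same comparison gave −3.85 ± 1.24 (FDR = 0.0164) and −8.32 without m-stamen replicate 2 (FDR = 0.00348).

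CYP703A2, an in-chain hydroxylase of medium-chain fatty acids, was highest in F-stamen and next in m-carpel. LITCHI026872 was at 3.25, 2.34 and 2.78 FPKM in F-stamen and at 0.763, 1.1 and 1.65 FPKM in m-carpel. M-stamen was at 0.742, 0.457 and 0.620 FPKM and m-stamen at 0.492, 0.728 and 0.687 FPKM. F-carpel and M-carpel were at or below 0.0609 FPKM. The F-stamen libraries lay above all others, and the m-carpel libraries above those of F-carpel and M-carpel. m-carpel was above M-stamen and m-stamen in FPKM, whereas in CPM scaled by TMM its replicate 1 was below 1 M-stamen and 2 m-stamen libraries. F-stamen exceeded F-carpel by 6.51 ± 0.59 (edgeR, FDR = 2.8e-08), M-stamen by 2.07 ± 0.43 (FDR = 6.3e-04) and m-stamen by 1.76 ± 0.43 (FDR = 0.00195). The last call was lost without F-stamen replicate 1 (1.61) or m-stamen replicate 1 (1.63). M-stamen exceeded M-carpel by 4.63 ± 0.64 (FDR = 6.7e-06). In the m flowers the stamen did not differ from the carpel at the threshold (−0.62 ± 0.42, FDR = 0.199). m-carpel was above F-carpel (−5.37 ± 0.59, FDR = 2.8e-07) and M-carpel (−5.57 ± 0.63, FDR = 1.0e-06). Without F-carpel replicate 1 the difference of F-carpel from m-carpel was −6.25 and that from F-stamen 7.38, and without replicate 2 the latter was 5.85.

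The reductases of the tetraketide step showed 4 different patterns among the TKPR1 loci with counts. By the second annotation LITCHI002216 was again TKPR1 and LITCHI005521 TKPR2, whereas LITCHI004424, LITCHI004425 and LITCHI004433 were nearest to a cinnamoyl-CoA reductase 1-like protein, of a family that acts in lignin synthesis.
LITCHI002216 was highest in m-stamen, at 7.18, 7.59 and 6.89 FPKM, and next in M-stamen, at 3.03, 3.85 and 5.51 FPKM. It was at 3.50, 3.49 and 2.98 FPKM in m-carpel, and the libraries of F-carpel, M-carpel and F-stamen were between 0.902 and 1.40 FPKM. M-stamen and m-carpel overlapped. F-stamen was lower than M-stamen by −2.15 ± 0.20 (edgeR, FDR = 6.7e-08) and lower than m-stamen by −3.21 ± 0.20 (FDR = 3.5e-10), and m-carpel was above F-carpel (−1.72 ± 0.19, FDR = 4.2e-07) and M-carpel (−1.40 ± 0.19, FDR = 1.1e-05). M-stamen was above M-carpel by 1.71 ± 0.19 (FDR = 6.4e-07) and m-stamen above m-carpel by 1.37 ± 0.18 (FDR = 3.6e-06). The difference between M-stamen and m-stamen, −1.05 ± 0.18 (FDR = 1.3e-04), fell below the minimum fold change without M-stamen replicate 1 or 2 or m-stamen replicate 2 (between −0.886 and −0.999).

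LITCHI004424 was between 8.60 and 10.4 FPKM in all carpels and F-stamen, and between 3.58 and 4.48 FPKM in M-stamen and m-stamen. The ranges did not overlap. M-stamen was lower than M-carpel by −1.06 ± 0.09 (edgeR, FDR = 7.8e-09) and m-stamen lower than m-carpel by −1.07 ± 0.09 (FDR = 4.3e-09), the latter at −0.98 with RLE size factors. F-stamen minus M-stamen gave 0.93 ± 0.09 (FDR = 6.8e-08) and F-stamen minus m-stamen 0.90 ± 0.09 (FDR = 8.2e-08), both below the minimum fold change.
LITCHI004425 was at 8.02, 11.1 and 6.36 FPKM in F-stamen, at 3.82, 3.46 and 4.17 FPKM in M-stamen and at 2.10, 1.55 and 1.43 FPKM in m-stamen, with no overlap. F-carpel and M-carpel were between 6.17 and 9 FPKM and m-carpel between 2.30 and 2.92 FPKM. F-stamen was above m-stamen by 1.96 ± 0.23 (edgeR, FDR = 1.2e-06), and m-carpel was lower than F-carpel (1.41 ± 0.22, FDR = 2.5e-05) and M-carpel (1.33 ± 0.23, FDR = 9.7e-05). F-stamen minus M-stamen, 1.04 ± 0.22 (FDR = 7.0e-04), was between 0.796 and 0.968 and not called without F-carpel replicate 2, M-carpel replicate 3, m-carpel replicate 3, F-stamen replicate 2, M-stamen replicate 2 or m-stamen replicate 2 or 3.

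LITCHI004433 was highest in F-stamen, at 5.54, 5.54 and 6.12 FPKM, followed by M-carpel at 4.28, 3.54 and 3.57 FPKM. It was at 2.21, 2.09 and 1.37 FPKM in M-stamen and at 0.289, 0.729 and 0.748 FPKM in m-stamen, and F-carpel and m-carpel were between 1.31 and 2.34 FPKM. The F-stamen libraries were above all others. F-stamen was above F-carpel by 1.86 ± 0.28 (edgeR, FDR = 1.3e-05), above M-stamen by 1.48 ± 0.28 (FDR = 2.2e-04) and above m-stamen by 2.88 ± 0.30 (FDR = 2.5e-07). M-carpel was above F-carpel (−1.33 ± 0.28, FDR = 4.4e-04) and m-carpel (1.39 ± 0.28, FDR = 5.2e-04), and M-stamen above m-stamen by 1.40 ± 0.30 (FDR = 8.8e-04), a call lost with only both stamens in the fit (FDR = 0.0127).
TKPR2 varied less. LITCHI005521 was at 1.47, 1.86 and 0.722 FPKM in F-stamen, at 2.95, 2.29 and 2.56 FPKM in M-stamen and at 1.88, 2.11 and 2.36 FPKM in m-stamen. F-carpel was between 1.91 and 2.84 FPKM, and M-carpel and m-carpel were between 1.02 and 1.58 FPKM. The F-stamen libraries were below those of the other stamens, by −1.05 ± 0.29 against M-stamen (edgeR, FDR = 0.00544) and −1.01 ± 0.29 against m-stamen (FDR = 0.00663). Both calls were lost without F-stamen replicate 1 or 3, the first also without M-stamen replicate 1 or 3 and the second without m-stamen replicate 1 or 3, with FDR up to 0.0250 and 0.0157.

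By mean FPKM, m-carpel had the highest level of 6 of the 15 members tested and F-stamen of 5, among the 6 organs. By mean CPM scaled by TMM these were 7 and 5, beside 18.7% and 14.1% of all loci. Of the 15 members tested, 8 were lower and 2 higher in F-carpel than in m-carpel, a total of 10 beside 38.3% of all loci called, with 17.7% lower and 20.6% higher. The median log2 fold change of the members was −2.33, also with loci at 0 set to their bound, beside 0.00 over all loci. M-carpel was lower than m-carpel in 6 members and higher in 2, beside 14.7% of all loci called, with 4.8% lower and 9.95% higher, with a median of −0.93 beside 0.02. The 6 were AMS LITCHI002043, PKSA, PKSB LITCHI001957, CYP703A2, ABCG26 and TKPR1 LITCHI002216. F-carpel was lower than M-carpel in 4 members (PKSA, both CYP704B1 loci and TKPR1 LITCHI004433) and higher in 1 (AMS LITCHI004937), beside 32.7% of all loci called, with 16.4% lower and 16.3% higher.
All 3 m-carpel libraries were above the other 15, in CPM scaled by TMM, in 5 of 15 members, beside 10.9% of all loci. AMS LITCHI002043 and PKSA were called higher in m-carpel than in F-carpel, M-carpel and m-stamen alike, beside 1.57% of all loci.

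**Figure D2:**
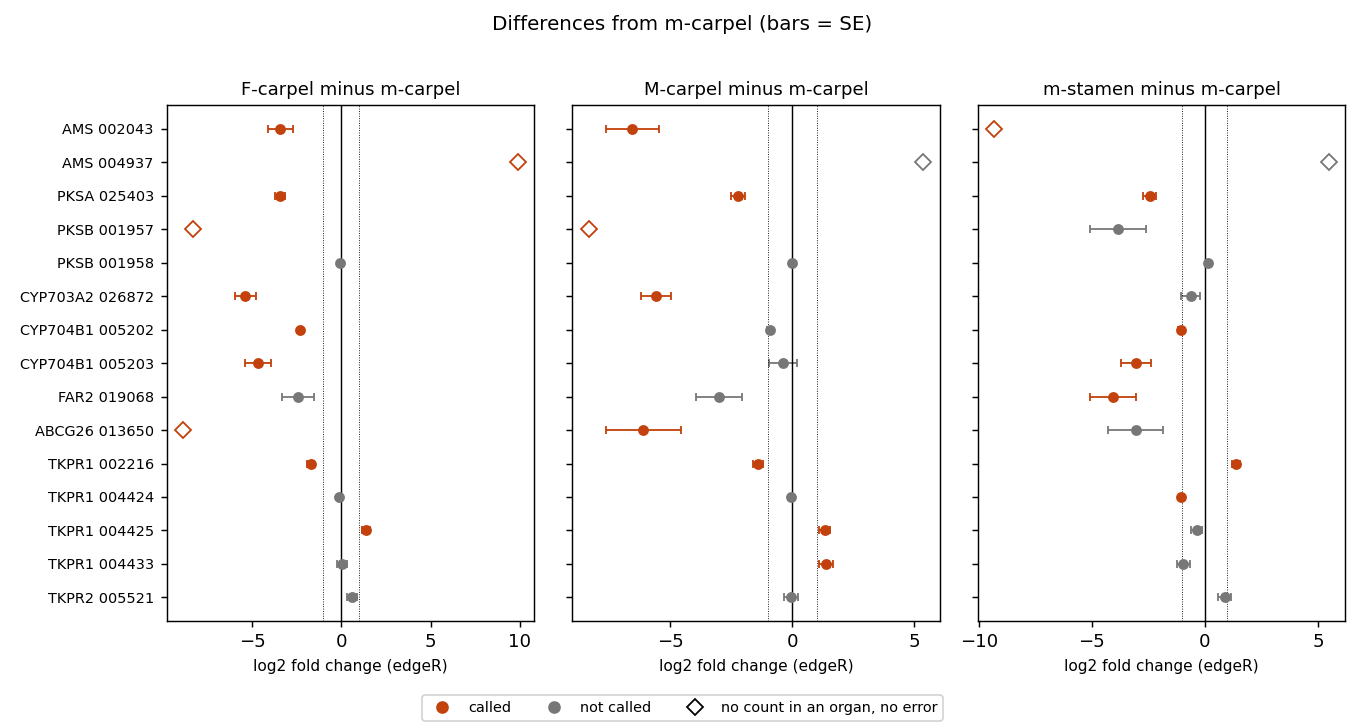
Log2 fold change (horizontal axis, edgeR, bars SE) of the 15 members tested for F-carpel, M-carpel and m-stamen, each minus m-carpel, with dotted lines at the minimum fold change. Filled orange points are called and grey points are not, and open diamonds mark members with no count in 1 organ, whose position depends on the fit's prior count. Called values lie left of 0 for 8, 6 and 6 members in the 3 panels.

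Other markers in the carpels were measured beside these results. LcPI (LITCHI011302), a class B gene of petal and stamen identity, was at 2.61 ± 0.86 FPKM in F-carpel, 76.7 ± 1.99 FPKM in M-carpel and 4.01 ± 0.50 FPKM in m-carpel (SD, n = 3), beside 374 ± 13.2 FPKM in m-stamen. LcAP3-1 (LITCHI006530), its class B partner, had another order, with 79.3 ± 4.25 FPKM in F-carpel, 61.4 ± 2.67 FPKM in M-carpel and 35.9 ± 1.81 FPKM in m-carpel, beside 205 ± 6.59 FPKM in m-stamen. Summed over 39 loci annotated as pollen grain and tube proteins, the level was between 136 and 147 FPKM in m-carpel, 182 and 191 FPKM in M-carpel and 76.0 and 84.3 FPKM in F-carpel, with 12, 13 and 14 of the 39 at 0. In F-stamen, M-stamen and m-stamen 8, 7 and 8 of the 39 were at 0. The highest loci in m-stamen, LITCHI013059 and LITCHI026482, were at means of 1385 and 1290 FPKM and weigh most in its sum. The sum in m-carpel was 2.82% of that in m-stamen, and in M-carpel 9.92% of that in M-stamen. Some of the 39 went the other way by mean FPKM. An exopolygalacturonase (LITCHI008940) was at 45.5 ± 1.06 FPKM in m-carpel, 7.44 ± 0.27 FPKM in m-stamen, 38.6 ± 1.85 FPKM in M-carpel and 18 ± 2.01 FPKM in M-stamen (SD, n = 3). A MADS-box locus annotated as AGL104 (LITCHI006970) was at 1.42 ± 0.13 FPKM in M-carpel and 0.519 ± 0.111 FPKM in M-stamen. Of the 26 loci tested, 22 were called higher in m-stamen than in m-carpel and 1 lower, beside 23.6% and 17.7% of all loci. In M flowers 19 were higher in the stamen and 1 lower, beside 15.7% and 11%. PKSA, both CYP704B1 loci, FAR2 LITCHI019068, AMS LITCHI002043 and TKPR1 LITCHI004424 were called higher in m-carpel than in m-stamen. TKPR1 LITCHI002216 was called lower in m-carpel, and the other members tested, among them CYP703A2, ABCG26 and PKSB LITCHI001957, were not called. The levels of LcPI, LcAP3-1 and the summed pollen list were lower in m-carpel than in m-stamen. The part of stamen or pollen RNA in the carpel levels was not tested. In these bulk samples, fewer cells of a type and less RNA per cell cannot be told apart. LcSTK (LITCHI011705), a class D gene of ovules, was at 32.9 ± 2.05 FPKM in F-carpel, 1.12 ± 0.33 FPKM in M-carpel and 7.85 ± 0.32 FPKM in m-carpel. It belongs to a list of 8 carpel, style and ovule loci, of which 7 were tested. Of these 7, 2 were called higher and 3 lower in F-carpel than in m-carpel, beside 20.6% and 17.7% of all loci. Against M-carpel 2 were higher and 3 lower, beside 16.3% and 16.4%. SPATULA (LITCHI006903), for example, was at 13.5 ± 0.49 FPKM in F-carpel, 71.8 ± 5.29 FPKM in M-carpel and 57.8 ± 2.49 FPKM in m-carpel.

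Among the stamens, the called members divided between F-stamen and the male flowers. F-stamen was higher than M-stamen in 4 members (AMS LITCHI002043, CYP703A2, TKPR1 LITCHI004425 and LITCHI004433) and lower in 2 (TKPR1 LITCHI002216 and TKPR2), beside 18.7% of all loci called, with 10.6% higher and 8.1% lower. Against m-stamen, 5 were higher, with AMS LITCHI004937 in addition, and 2 lower, beside 22.9%, with 12.9% higher and 10% lower. M-stamen and m-stamen differed in TKPR1 LITCHI002216 and LITCHI004433, in opposite directions, beside 13.1%, with 5.84% higher and 7.3% lower. The median of the members was 0.11 in both comparisons of F-stamen, beside 0.18 and 0.10 over all loci, and 0.19 against M-stamen with loci at 0 set to their bound. PKSA, both CYP704B1 loci, FAR2 LITCHI019068 and ABCG26 were not called in any comparison between stamens. AMS LITCHI002043, CYP703A2 and TKPR1 LITCHI004433 were called higher in F-stamen than in F-carpel, M-stamen and m-stamen alike, beside 2.22% of all loci. In CPM scaled by TMM the F-stamen libraries of these 3 members lay above the other 15, beside 6.72% of all loci. The summed pollen list was between 4108 and 4367 FPKM in F-stamen, 1773 and 1984 FPKM in M-stamen and 4966 and 4995 FPKM in m-stamen. Of its 26 loci tested, 8 were called higher and 0 lower in F-stamen than in M-stamen, beside 10.6% and 8.1%. Against m-stamen 3 were higher and 9 lower, beside 12.9% and 10%. The part of pollen RNA in the stamen levels was not tested.

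**Figure D3:**
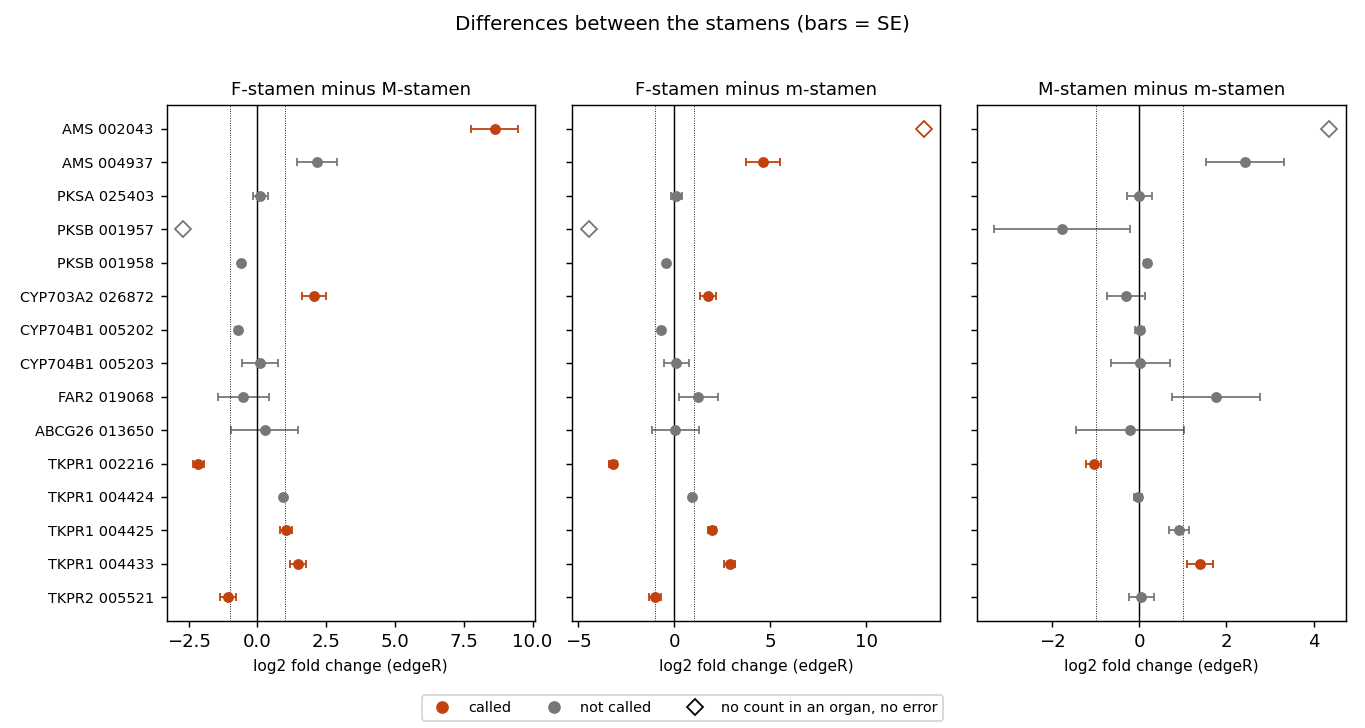
Log2 fold change (horizontal axis, edgeR, bars SE) of the 15 members tested between the stamens of the 3 flower types, with dotted lines at the minimum fold change. Filled orange points are called and grey points are not, and open diamonds mark members with no count in 1 organ. AMS LITCHI002043 stands at 8.63 in the first panel, and TKPR1 LITCHI002216 is the member farthest to the left among the called in each panel.

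Stamen and carpel of the same flower were compared in each flower type. In F flowers 4 members were higher in the stamen (AMS LITCHI002043, PKSA, CYP703A2 and TKPR1 LITCHI004433) and none was lower, beside 37.0% of all loci called, with 21.4% higher and 15.6% lower. In M flowers 2 were higher (CYP703A2 and TKPR1 LITCHI002216) and 2 lower (CYP704B1 LITCHI005203 and TKPR1 LITCHI004424), beside 26.7%, with 15.7% higher and 11% lower. In m flowers 1 was higher (TKPR1 LITCHI002216) and 6 were lower (AMS LITCHI002043, PKSA, both CYP704B1 loci, FAR2 LITCHI019068 and TKPR1 LITCHI004424), beside 41.3% of all loci, with 23.6% higher and 17.7% lower. The median of the members was −1.07 in m flowers, 0.19 in F flowers and 0.70 in M flowers, and 0.37 and 0.52 in the last 2 when loci at 0 were set to their bound and loci with 3 or fewer counts in both organs left out.
Over the means of 3 stamens and 3 carpels, CYP703A2 was higher in stamens by 3.51 ± 0.32 (edgeR, FDR = 2.3e-08) and CYP704B1 LITCHI005203 lower by −1.31 ± 0.39 (FDR = 0.00623), beside 32.2% of all loci called, with 20% higher and 12.2% lower. The call of LITCHI005203 was lost when any 1 of 10 libraries was left out (FDR between 0.0104 and 0.0359), all except F-carpel replicate 2, M-carpel replicates 1 and 3, m-carpel replicate 3, F-stamen replicate 1, m-stamen replicates 1 and 2 and M-stamen replicate 1. AMS LITCHI004937 was also called higher in stamens (FDR = 0.00415), a call that rests on m-carpel at 0 and was lost without m-stamen replicate 1 (FDR = 0.0254). The stamen minus carpel difference itself differed between F and M flowers in 6 members, beside 30% of all loci (16.2% larger in F and 13.7% smaller). Between F and m flowers it differed in 10, beside 34.3% (17.4% larger in F and 16.9% smaller), and between M and m flowers in 4, all larger in M, beside 17.7% (6.76% larger in M and 11% smaller).

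A further 38 loci carried annotations for other tapetum and pollen wall proteins, such as callose synthase 5, the tapetal receptor EMS1, the exine protein DEX1 and ACOS5, and 31 of them were tested. Of these, 15 were higher in stamens than in carpels and 3 lower, beside 20% and 12.2% of all loci, with a median of 0.78 beside 0.01 over all loci. ABCG9 (LITCHI013206), an ABC transporter, rose to a mean of 112 FPKM in m-stamen and was higher in stamens by 3.78 ± 0.07. The strictosidine synthase-like protein 13 (LITCHI015928), also called LAP3, reached a mean of 82.1 FPKM in F-stamen and was higher in stamens by 4.39 ± 0.09. ABCG15 (LITCHI008823), with its highest mean of 18.5 FPKM in F-carpel, was lower in stamens by −1.88 ± 0.07 and at 1.68 when a single gene model stood for the locus, and ABCG31 (LITCHI011802), at 5.06 FPKM in M-carpel, by −1.30 ± 0.14.
Between F-stamen and M-stamen, 5 of the 31 were higher and 5 lower, beside 10.6% and 8.1% of all loci. The tapetal helix-loop-helix factor bHLH91 (LITCHI025266) was at 12.2, 11.8 and 11.7 FPKM in F-stamen and at 0.394, 0.409 and 0.438 FPKM in M-stamen, a difference of 4.54 ± 0.31. LITCHI015928 was higher in F-stamen by 1.30 ± 0.13, LITCHI013206 lower by −3.83 ± 0.11, and the other bHLH91 locus (LITCHI011739) lower by −1.07 ± 0.12.

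Among the carpels, 14 of the 31 other loci were lower in F-carpel than in m-carpel and 4 higher, beside 17.7% and 20.6% of all loci, with a median of −1.1 beside 0.00 over all loci, and 5 were lower and 7 higher in M-carpel than in m-carpel, beside 4.8% and 9.95%. The ACOS5 loci, chosen after their values were seen, were confined to few libraries. LITCHI004645 was at 2.73, 2.04 and 2.72 FPKM in m-carpel and LITCHI004650 at 2.89, 2.49 and 2.62 FPKM. All other libraries were at or below 0.187 FPKM for the first and 0.224 FPKM for the second, and both were at 0 in M-carpel and m-stamen. F-carpel minus m-carpel gave −5.16 ± 0.93 and −5.33 ± 1.13, both called with edgeR (FDR = 2.3e-04 and 8.9e-04) and not with DESeq2 (FDR = 0.0352 and 0.0927). Without F-carpel replicate 3, which held most of the F-carpel counts, the values were −6.75 and −10.66, and without replicate 2 they were −4.55 and −4.72.

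**Figure D4:**
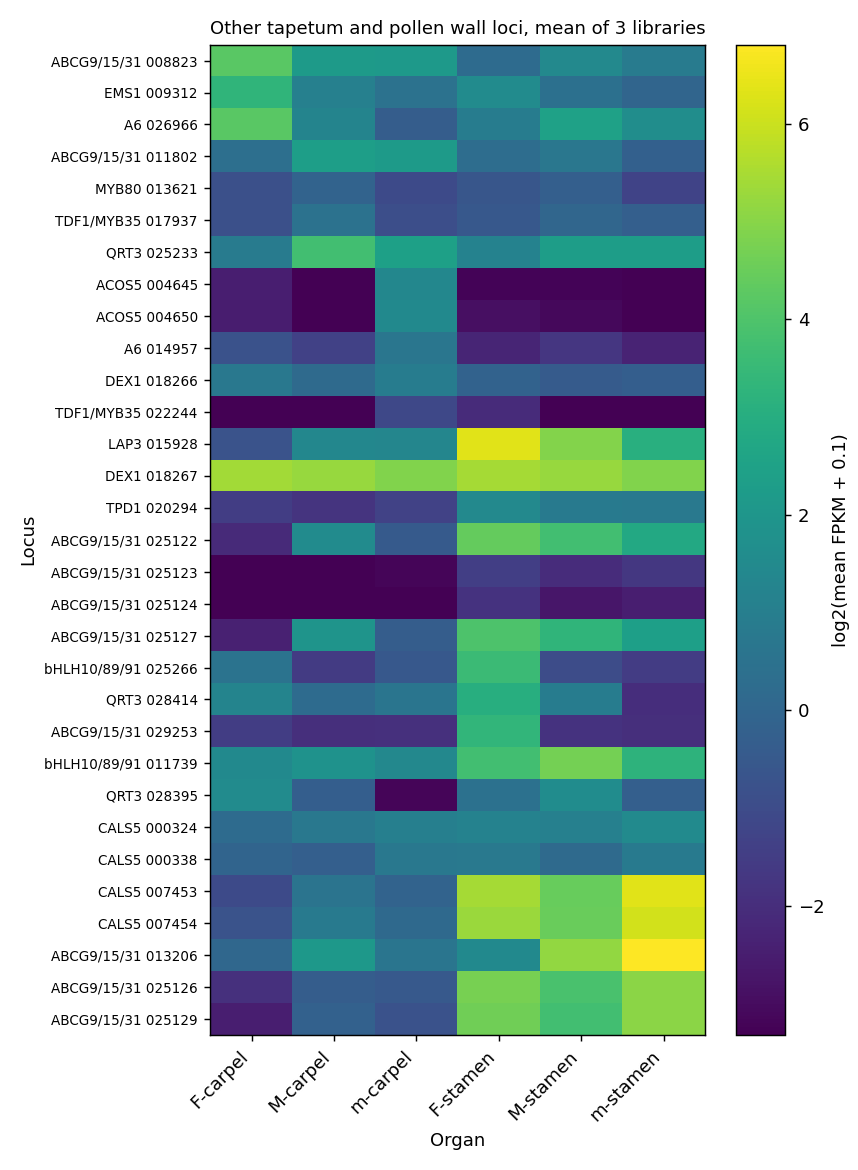
Mean level of 3 libraries, as log2(FPKM + 0.1) by colour, of the 31 other tapetum and pollen wall loci tested (rows, with the last digits of the LITCHI number) in the 6 organs (columns), ordered by the organ of the highest mean. ABCG9 LITCHI013206 in m-stamen (112 FPKM) and LAP3 LITCHI015928 in F-stamen (82.1 FPKM) are the highest fields, and both ACOS5 rows are bright in m-carpel only.

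The loci with the most similar profile over the 6 organ means were looked up for the 3 members with the highest mean FPKM in any 1 organ, among 15398 annotated loci with at least 1 CPM. Similarity was the root mean square difference of the centred log2 CPM. For PKSB LITCHI001958 the nearest were the kinase AFC2 (LITCHI018749, 0.056), a shaggy-related kinase (LITCHI002317, 0.059) and an EMBRYO DEFECTIVE protein (LITCHI018453, 0.073). For CYP704B1 LITCHI005202 they were the receptor-like kinase At2g16250 (LITCHI010289, 0.086), the invertase CWINV6 (LITCHI016578, 0.106) and the ubiquitin ligase RGLG1 (LITCHI004807, 0.110). For AMS LITCHI002043 they were farther off, namely the aquaporin NIP7-1 (LITCHI014717, 1.14), a non-specific lipid-transfer protein (LITCHI026889, 1.40) and a mavicyanin (LITCHI026233, 1.5). In F-stamen these 3 were at means of 5.97, 112 and 16.2 FPKM, and in every other organ at or below 1.16 FPKM.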

How the data were processed

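Reads were trimmed with Trimmomatic and freed of ribosomal RNA by the authors, who deposited unnormalized whole-number counts for every gene model in each library and FPKM values that the authors calculated with Cufflinks from uniquely mapped reads. The submitters' processing notes also name HISAT2 2.0.4 and StringTie. The counting program, genome build and annotation were not given in the sources used. In each library a count of 2 occurred 2.11 to 2.99 times as often as a count of 1, so 1 fragment may often count as 2. Counting intervals may therefore be too narrow and fold bounds too high. The deposited FDR and log2 fold changes of the authors' own 9 comparisons were not used.

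Counts and FPKM were summed over the 37401 gene models to 34024 loci. Counts were filtered with filterByExpr by organ, scaled by TMM (factors 0.821 to 1.17) and tested with edgeR 4.0.16 in R 4.3.3 by the quasi-likelihood F-test, in 1 model with 6 organs, with Benjamini-Hochberg adjustment over 24666 loci. SE was derived from the fold change and the F statistic. Fold bounds set an organ at 0 to 3 counts over its 3 libraries. Bounds and counting intervals use counts pooled over the libraries of an organ and leave out the spread between them. The 13 comparisons were stamens against carpels, stamen against carpel in each flower type, the pairs of stamens and of carpels, and 3 interactions. Alternatives were DESeq2 1.42.0, its size factors, other filters, limma 3.58.1 on log2(FPKM + 1) and log2(FPKM + 0.1), single gene models, a replicate block, only the organs compared, other thresholds, and each library left out. Leaving out 5 loci of 1% or more of a library was chosen after seeing the data. The procedures were tested on simulated data. Changes were placed there only in loci with a mean of at least 1 CPM, so members at lower levels were not covered. Every member that passed the filter is named, together with called loci of the highest FPKM of the other list and the nearest profiles. The members and lists were chosen with earlier results of these data known.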

Additional observations from a re-analysis of the deposited data

Results flagged for a closer look

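The difference between stamen and carpel was compared between flower types by an interaction term in edgeR, and 20 such differences of members were called, 6 between F and M, 10 between F and m and 4 between M and m flowers. A positive value means a stamen minus carpel difference that was larger in the first flower type. Values of members with no count in 1 organ depend on the prior count of the fit and are no measure of size.

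Between F and M flowers, the value was 4.36 for CYP704B1 LITCHI005203, 2.80 for TKPR1 LITCHI004433, 1.32 for PKSA LITCHI025403, 1.01 for TKPR1 LITCHI004424, −1.84 for TKPR1 LITCHI002216 and −1.68 for TKPR2 LITCHI005521. The PKSA call was lost without any 1 of 14 libraries, all except F-carpel replicate 3, M-carpel replicate 2, F-stamen replicate 2 and M-stamen replicate 2 (FDR between 0.0123 and 0.0451). That of LITCHI004424 was lost without any 1 of 9, all except F-carpel replicate 3, M-carpel replicate 1, m-carpel replicates 1 and 2, F-stamen replicates 1 and 2, M-stamen replicates 1 and 2 and m-stamen replicate 1 (values between 0.852 and 0.994). LITCHI005203 was at 3.67 without F-carpel replicate 2 and 5.03 without replicate 3.

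Between F and m flowers, the value was 16.39 for AMS LITCHI002043 and 8.89 for ABCG26 LITCHI013650, each with an organ at 0. It was 7.13 for CYP703A2 LITCHI026872, 4.76 for CYP704B1 LITCHI005203, 3.54 for PKSA LITCHI025403, 2.81 for TKPR1 LITCHI004433, 1.63 for CYP704B1 LITCHI005202, 1.02 for TKPR1 LITCHI004424, −1.49 for TKPR1 LITCHI002216 and −1.59 for TKPR2 LITCHI005521. The ABCG26 call was lost without F-stamen replicate 2 or m-stamen replicate 3 (FDR up to 0.0168), and that of LITCHI004424 without any 1 of 8 libraries, namely F-carpel replicate 2, M-carpel replicate 3, m-carpel replicates 1 and 3, F-stamen replicate 3 and m-stamen replicates 1, 2 and 3 (values between 0.847 and 0.999). LITCHI005203 was at 4.05 without F-carpel replicate 2 and 5.43 without replicate 3, and CYP703A2 at 8 without F-carpel replicate 1 and 6.45 without replicate 2.

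Between M and m flowers, the value was 10.90 for AMS LITCHI002043, with an organ at 0, 5.26 for CYP703A2 LITCHI026872, 4.76 for FAR2 LITCHI019068 and 2.22 for PKSA LITCHI025403. The AMS call was lost without any 1 of 12 libraries, all except F-carpel replicates 1, 2 and 3, m-carpel replicate 1, F-stamen replicate 3 and M-stamen replicate 3 (FDR up to 0.0536). The FAR2 call was lost without any 1 of 15, all except F-carpel replicate 2, M-carpel replicate 1 and M-stamen replicate 1 (FDR up to 0.0346).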

How the results depend on the processing

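Of the 76 calls of members over the 13 comparisons, 41 were kept under all 30 alternatives, and no call of a member changed direction. Of the other loci named, ABCG15 LITCHI008823 was at 1.68 for stamens minus carpels when a single gene model of the locus stood for it. RLE size factors moved the median of all loci by over 0.1 on the log2 scale only for the interaction of F and m flowers, from 0.105 to −0.016. With limma on log2(FPKM + 1), where low levels are compressed by the pseudocount, the members called numbered 1 for stamens minus carpels, 2 for M-stamen minus M-carpel, 4 for m-stamen minus m-carpel, 0 for M-stamen minus m-stamen, 3 for F-carpel minus M-carpel, 6 for F-carpel minus m-carpel and 4 for M-carpel minus m-carpel. With no minimum fold change they numbered 7 for stamens minus carpels and 8 for M-stamen minus M-carpel. With only the organs compared, M-stamen minus m-stamen gave 1, and with limma on log2(FPKM + 0.1) the interaction of M and m flowers gave 7. The shares of all loci called under these settings are not given, so a shift of the members cannot be told from one of all loci. The cause of these shifts was not tested. With 1 library left out, the members called ranged from 1 to 3 for M-stamen minus m-stamen, with 1 without M-stamen replicate 1 or 2 or m-stamen replicate 2, and from 2 to 4 for the interaction of M and m flowers, with 2 without F-stamen replicate 1 or 2, M-carpel replicate 2 or 3, m-carpel replicate 2 or 3 or m-stamen replicate 1. For all other comparisons the number stayed within 1.5 times the main count. Samples with the same replicate number did not deviate together over all loci (r between −0.037 and 0.061 over 45 pairs). Whether they shared flowers or a side of the tree cannot be told from this, and the main fit did not pair them. The replicate block left the calls of members at 3, 4, 4 and 7 for stamens against carpels overall and in F, M and m flowers, and its 2 lost calls were the interactions of PKSA (1.34) and FAR2 LITCHI019068 (4.83). Levels under 1 FPKM rest on few counts, and differences there were not detectable at this depth unless large.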

Other observations

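MYB108 (LITCHI014298), a factor of anther maturation and dehiscence in Arabidopsis, was lower in female than in male flowers in both organs. It was at 22.5, 21.7 and 21.3 FPKM in F-stamen, at 248, 237 and 262 FPKM in M-stamen and at 266, 260 and 263 FPKM in m-stamen. In F-carpel it was at 3.27, 3.24 and 2.80 FPKM, in M-carpel at 54.5, 45.7 and 50.6 FPKM and in m-carpel at 44.6, 43.3 and 44.0 FPKM. The F-stamen libraries lay below those of the other stamens, and the F-carpel libraries below those of the other carpels. F-stamen was lower than M-stamen by −3.62 ± 0.06 (edgeR, FDR = 2.9e-17), and F-carpel was lower than m-carpel by −4.06 ± 0.07 (FDR = 1.9e-18). Of the 7 tested loci of the anther wall and dehiscence list, 1 was higher and 4 were lower in F-stamen than in M-stamen, beside 10.6% and 8.1% of all loci. In F-carpel 2 were higher and 1 lower than in m-carpel, beside 20.6% and 17.7%, and 2 higher and 2 lower than in M-carpel, beside 16.3% and 16.4%. NST1 (LITCHI021813), a factor of secondary wall thickening, went the other way from MYB108, with 5.08 ± 0.80 FPKM in F-carpel and 0.0157 ± 0.0272 FPKM in m-carpel (SD, n = 3; edgeR, FDR = 4.2e-09). MYB26 (LITCHI022043) was at 1.67 ± 0.37 FPKM and 0.153 ± 0.156 FPKM and was not called (FDR = 0.0183). The second NST1 locus (LITCHI026796) was at 0.149 ± 0.122 FPKM in F-carpel and 0.0068 ± 0.0117 FPKM in m-carpel. For the second MYB26 locus (LITCHI030130) these levels were 0.207 ± 0.180 FPKM and 0.225 ± 0.127 FPKM. MYB108, NST1 and MYB26 were chosen after their values were seen.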
